A study of Mus musculus with 6 samples.

Results

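Syk and Zap70 are paired tyrosine kinases that read out the same kind of receptor tail, and 9 genes around them are described here in NKT1 cells of the mouse thymus. The 9 are the kinases Syk and Zap70, the activating receptors Ncr1 (NKp46) and Fcgr3 (CD16), the signalling adaptors Fcer1g (FcR gamma), Tyrobp (DAP12), Cd247 (CD3 zeta) and Hcst (DAP10), and the protein kinase C substrate Plek (pleckstrin). They were matched by symbol among the 47643 genes of the deposited table. The set was chosen by the levels and fold changes of these same libraries, together with known function, so the members' values in the CD4 comparison are given as a description and without a test. All 9 had enough counts to enter the 12760 genes tested.

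The libraries are mRNA sequencing libraries of NKT1 cells, the T-bet-expressing subset of invariant natural killer T (iNKT) cells, which were sorted by flow cytometry. All came from thymus of WT BALB/c mice. There are 3 libraries of CD4-positive cells and 3 of CD4-negative cells. The sources used here state no age, sex or pooling of animals. They also do not say whether the replicates are different mice, so each p-value reflects only the scatter among these 6 libraries, part of which may be technical. Levels are in CPM, counts scaled to a common library size, with TMM scaling, which corrects library totals for composition. A mean is given with its SD over the 3 libraries of a group, and a log2 fold change is CD4-positive minus CD4-negative. Because these are bulk samples, fewer cells carrying a transcript and less transcript per cell cannot be told apart.

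Library totals lay between 40480468 and 53145898 estimated counts, so that 1 count is worth 0.0188 to 0.0247 CPM. Cd4, the sort marker, stood at 453 ± 53.7 CPM in CD4-positive libraries, against 22.7 ± 16.2 CPM in CD4-negative libraries. CD4-negative replicate 3 stood apart, with counts for 13804 genes against 15320 to 16319 in the others. The number of genes called by edgeR is also given without it. So are the log2 fold changes of Syk, Zap70, Tyrobp, Cd247, Hcst, Cd3g, Cd3d, Lck and Skap1. Genes of the Y chromosome gave 466 counts in CD4-positive replicate 1 and 523 in CD4-negative replicate 1, and 0 or 1 in the other 4 libraries. Mitochondrial genes made up 1.35% of counts in CD4-positive replicate 1 and 1.33% in CD4-negative replicate 3, against 3.51% to 5.19% in the other 4 libraries. The part of this in the results was not tested. All 10 markers of T and NKT1 cells were detected in every library and none passed edgeR's test. Of all tested genes 0.212% passed and 9.43% had groups that did not overlap, for comparison with each marker list here. Among the 10 markers of T and NKT1 cells 5 had groups that did not overlap. Of these, Trav11 (56.0 ± 38.3 against 12.7 ± 7.86 CPM), Zbtb16 (106 ± 40.9 against 61.9 ± 1.82 CPM), Cd5 (236 ± 6.43 against 160 ± 17 CPM) and Trac (750.2 ± 40.8 against 706 ± 22.7 CPM) were higher in CD4-positive cells, and Thy1 (815 ± 28.3 against 1142 ± 83.4 CPM) was lower. Their part in the results was not tested. Of 14 myeloid markers 13 stayed under 1 CPM in every library, with a summed level of 1.95 to 2.34 CPM in CD4-positive libraries, against 2.94 to 3.63 CPM in CD4-negative libraries, which do not overlap, and their part in the results was not tested. S100a8 and S100a9 were at 0 throughout. The 1 myeloid marker whose groups did not overlap was Itgax, lower in CD4-positive cells (0.046 ± 0.041 against 0.620 ± 0.300 CPM), with its part not tested. Of 10 B cell markers 9 stayed under 1 CPM, with Pax5 at 0. The sum of the 10 was 1.06 to 1.75 CPM in CD4-positive libraries, against 0.629 to 1.46 CPM in CD4-negative libraries. Of 6 mast cell and basophil markers 5 were at 0 and Cpa3 reached 0.0430 CPM in a single library. The 10 markers of NK and innate lymphoid cells summed to 2478 to 3024 CPM in CD4-positive libraries, against 2958 to 3134 CPM in CD4-negative libraries, and most of them, such as Nkg7 and Il7r, are also NKT1 transcripts. The 2 of them whose groups did not overlap were Eomes (11.7 ± 2.06 against 35.6 ± 11.5 CPM) and Klre1 (40.6 ± 4.32 against 67.1 ± 14.9 CPM), both lower in CD4-positive cells, and the part of NK cells in the sort was not tested. The 4 measured markers of gamma-delta T cells summed to 71.8 to 109 CPM in CD4-positive libraries, against 72.3 to 88.9 CPM in CD4-negative libraries, and the 6 of immature thymocytes to 56.5 to 141 CPM and 42.1 to 148 CPM. Most of the gamma-delta sum was Trgv2, and in each of these lists 1 marker did not overlap and was higher in CD4-positive cells, Sox13 (8.79 ± 2.01 against 1.80 ± 0.84 CPM) and Il2ra (37.5 ± 8.21 against 21.2 ± 4.90 CPM), with their part not tested.

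Activating receptors such as NKp46 and CD16 have short tails and signal through partner chains. FcR gamma, DAP12 and CD3 zeta carry the immunoreceptor tyrosine-based activation motif (ITAM), a pair of tyrosines each followed by a leucine or isoleucine, which Src family kinases phosphorylate and which the paired SH2 domains of Syk or Zap70 then bind. DAP10 carries a shorter motif, a tyrosine followed by a methionine, which recruits phosphatidylinositol 3-kinase. In mature T cells the T cell receptor signals mainly through Zap70, while Syk is best known from B cells, myeloid cells, mast cells and NK cells.

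The coding stretches of these motifs are shown because they are what sets the ITAM adaptors apart from Hcst. They were read from the transcripts of GENCODE release M21 (GRCm38) and are printed spliced, on the coding strand, with the codons of the motif's tyrosines and leucines, isoleucine or methionine in capitals.
Fcer1g, chr1:171229889-171230072, minus strand, exons 4 and 5 of 5: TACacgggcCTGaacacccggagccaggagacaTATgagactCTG
Tyrobp, chr7:30415670-30417382, plus strand, exons 4 and 5 of 5: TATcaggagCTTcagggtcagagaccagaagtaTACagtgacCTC
Cd247 motif 1, chr1:165856451-165857454, plus strand, exons 3 and 4 of 8: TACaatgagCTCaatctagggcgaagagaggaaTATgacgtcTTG
Cd247 motif 2, chr1:165858473-165859260, plus strand, exons 5 and 6 of 8: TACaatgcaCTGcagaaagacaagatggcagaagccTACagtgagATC
Cd247 motif 3, chr1:165859819-165861042, plus strand, exons 7 and 8 of 8: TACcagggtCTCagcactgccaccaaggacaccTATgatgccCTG
Hcst, chr7:30417809-30417844, minus strand, exon 4 of 4: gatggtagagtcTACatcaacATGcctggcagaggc

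Fcer1g and Tyrobp each encode 1 ITAM, in proteins of 86 and 114 residues, and Cd247 encodes 3 in a protein of 164 residues. All 5 ITAMs are split by an exon boundary, while the motif of Hcst lies within the last exon of a gene for 79 residues. Tyrobp (chr7:30413760-30417585, plus strand) and Hcst (chr7:30417712-30419854, minus strand) are neighbours whose 3' ends face each other.

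Transcripts of Syk, Plek, Ncr1, Tyrobp and Fcer1g were lower in every CD4-positive than in every CD4-negative library, Fcgr3 was higher, and the values of Zap70, Cd247 and Hcst overlapped. Of the 9 genes 2, Syk and Plek, passed edgeR's quasi-likelihood test at an adjusted p under 0.05, both lower, where 27 of 12760 tested genes (0.212%) passed in either direction. Groups did not overlap for 6 of the 9, against 9.43% of all tested genes. Without CD4-negative replicate 3 edgeR called 44 genes, Syk, Plek and Ncr1 among them, and without any other single library it called 0. With the replicate number as a block, a pairing that the labels do not state, it called 0 genes. Since the 9 were chosen with these values known, nothing is read from either count. Their median log2 fold change was -0.94, and that of all tested genes was -0.01.

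**Figure D1:**
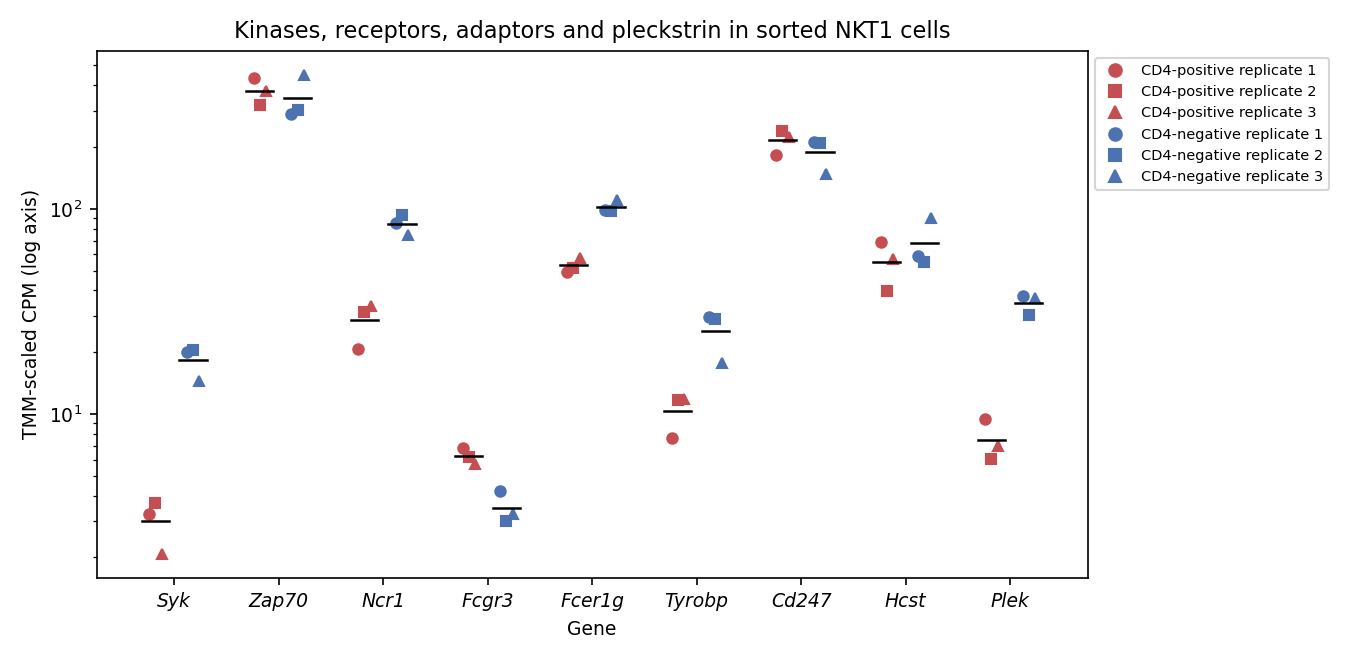
TMM-scaled CPM of the 9 genes on a log axis, with a point for each library (3 CD4-positive in red, left, and 3 CD4-negative in blue, right, shaped by replicate) and a black line at the group mean. Syk lies at 2.08 to 3.70 CPM in CD4-positive libraries, against 14.5 to 20.5 CPM in CD4-negative libraries, while the Zap70 points of the groups are interleaved.

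Syk (chr13:52583173-52648792, plus strand) stood at 3.27, 3.70 and 2.08 CPM in CD4-positive libraries, against 20.2, 20.5 and 14.5 CPM in CD4-negative libraries. These levels rest on 159, 192 and 108 counts in CD4-positive and 937, 1109 and 554 counts in CD4-negative libraries, so the low group is well above the floor of 3 counts. The means, 3.02 ± 0.84 and 18.4 ± 3.40 CPM, give a log2 fold change of -2.61, or a level 6.09-fold higher in CD4-negative cells. Of all tested genes 0.188% had a lower log2 fold change. The lowest CD4-negative library was replicate 3, and without it the log2 fold change was -2.75.

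Zap70 (chr1:36761798-36782818, plus strand) is the kinase of the T cell receptor and was the most abundant of the 9 in CPM. It was at 435, 319 and 375 CPM in CD4-positive libraries, against 290, 303 and 450 CPM in CD4-negative libraries. The highest value of all belonged to CD4-negative replicate 3 and the next to CD4-positive replicate 1, so the groups overlapped. The log2 fold change was 0.11, with 0.35 without CD4-negative replicate 3 and -0.0016 without CD4-positive replicate 1.

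Set against Zap70, Syk was at 0.751%, 1.16% and 0.556% of its CPM in CD4-positive libraries and at 6.94%, 6.78% and 3.21% in CD4-negative libraries. The ratio was lower in every CD4-positive library, 0.822 ± 0.308% against 5.64 ± 2.11%, a difference of -2.76 on the log2 scale. Per kilobase of annotated exon, which allows the levels of different genes to be compared, Syk was at 0.240%, 0.371% and 0.178% of Zap70 in CD4-positive and at 2.22%, 2.17% and 1.03% in CD4-negative libraries. The exon length counts every annotated transcript of a gene, retained introns included, which makes the Syk level per kilobase a low estimate. Zap70 was thus the more abundant kinase transcript in all 6 libraries. Both genes had whole-number counts in every library, and their annotated transcripts share no stretch of 50 bases.

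Among the receptors, Ncr1 (chr7:4337724-4345164, plus strand) encodes NKp46, which is known from NK cells and pairs with FcR gamma and CD3 zeta. It was at 20.8, 31.6 and 33.5 CPM in CD4-positive libraries, against 85.0, 92.8 and 74.7 CPM in CD4-negative libraries. The mean in CD4-negative cells was 2.94-fold higher (28.6 ± 6.86 against 84.2 ± 9.08 CPM, log2 -1.56), and the gap between the groups was wider than either group's range. CD4-positive replicate 1 was the lowest library, as it was for Fcer1g and Tyrobp.

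Fcgr3 (chr1:171051174-171064935, minus strand), which encodes the low-affinity immunoglobulin receptor CD16 and pairs with FcR gamma, went the other way. It was at 6.84, 6.14 and 5.68 CPM in CD4-positive libraries, against 4.2, 3.02 and 3.26 CPM in CD4-negative libraries (6.22 ± 0.58 against 3.49 ± 0.62 CPM, log2 0.83). This value is uncertain, because the counts of Fcgr3 were fractional in all 3 CD4-positive libraries and so were those of its neighbour Fcgr2b, an inhibitory receptor of the same family. The fractions of the pair added up to whole counts: 332.56 and 42.44 made 375 in CD4-positive replicate 1, 318.64 and 79.36 made 398 in replicate 2, and 294.62 and 44.38 made 339 in replicate 3. Annotated transcripts of the genes share 166 of the 1733 stretches of 50 bases in Fcgr3, and Fcgr3 shares none with Fcgr4, another neighbour.

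Fcgr2b was at 0.873, 1.53 and 0.856 CPM in CD4-positive libraries, against 4.24, 4.61 and 3.08 CPM in CD4-negative libraries. Added together, Fcgr3 and Fcgr2b stood at 7.71, 7.67 and 6.54 CPM in CD4-positive libraries and at 8.43, 7.62 and 6.34 CPM in CD4-negative libraries, which overlap. What differed was the share of Fcgr3 in the pair, 85.2 ± 4.55% in CD4-positive and 46.9 ± 6.42% in CD4-negative libraries. How many reads of each library could have come from either gene cannot be read from the table.

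**Figure D2:**
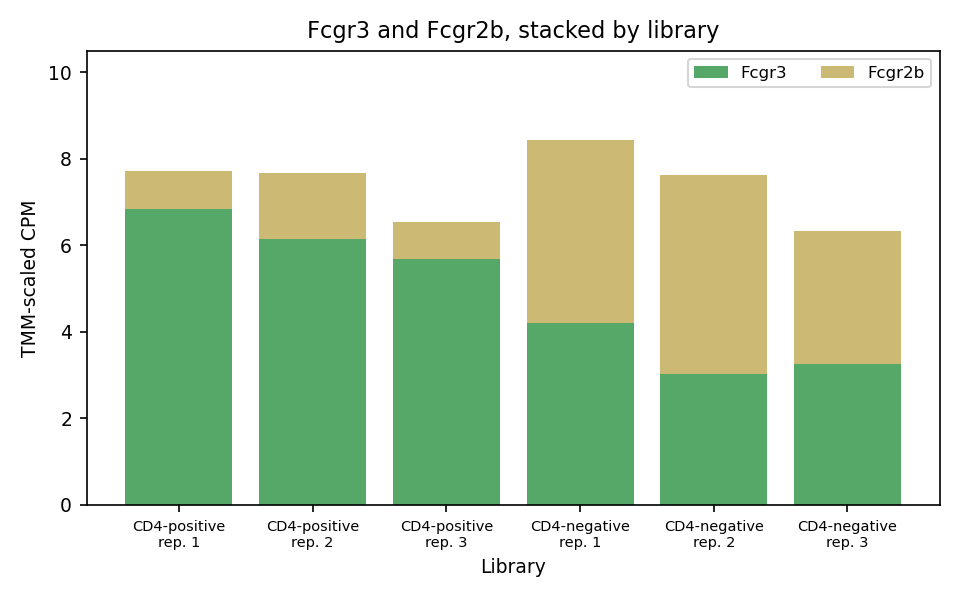
TMM-scaled CPM of Fcgr3 (green) and Fcgr2b (yellow), stacked, in each of the 6 libraries, with the CD4-positive libraries on the left. The height of the stack is 6.54 to 7.71 CPM in CD4-positive libraries, against 6.34 to 8.43 CPM in CD4-negative libraries, and the green part makes up most of it in the CD4-positive libraries.

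Of the ITAM adaptors, Fcer1g (chr1:171229572-171234365, minus strand) had the smallest relative spread within groups of the 9 genes. It was at 49.4, 51.6 and 57.8 CPM in CD4-positive libraries, against 98.3, 97.4 and 110 CPM in CD4-negative libraries. The coefficient of variation was 8.25% and 6.93%, and the means were 53 ± 4.37 and 102 ± 7.06 CPM (log2 -0.94).

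Tyrobp was at 7.61, 11.7 and 11.9 CPM in CD4-positive libraries, against 29.6, 29.2 and 17.7 CPM in CD4-negative libraries. CD4-negative replicate 3 was well below the other CD4-negative libraries and still above all CD4-positive libraries. The log2 fold change was -1.30, and -1.50 without that library.

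Cd247 (chr1:165788681-165877277, plus strand), the zeta chain of the T cell receptor complex, did not separate the groups. It was at 182, 240 and 225 CPM in CD4-positive libraries, against 211, 208 and 147 CPM in CD4-negative libraries (log2 0.19, and 0.04 without CD4-negative replicate 3). Its counts were fractional in all 6 libraries. It overlaps Gm16565 on the same strand, with 157 of 5415 stretches of 50 bases in common, and Gm16565 had at most 30.04 counts in a library, where Cd247 had at least 5630. The gene Pou2f1 overlaps it on the opposite strand and shares no such stretch when each is read on its own strand. Pou2f1 counts, 468.91 to 1891.88 per library, were also fractional in all 6 libraries. In each of the 6 libraries the fractions of Cd247, Gm16565 and Pou2f1 add up to a whole count within rounding, as in CD4-positive replicate 2 (12433.57, 22.38 and 1421.05). The Cd247 level is therefore uncertain to that extent, and how reads were divided among these genes was not tested.

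Hcst, the partner of the receptor NKG2D, was at 68.9, 39.6 and 56.9 CPM in CD4-positive libraries, against 59.2, 55.1 and 90.4 CPM in CD4-negative libraries. The groups overlapped, with the highest value in CD4-negative replicate 3 and the lowest in CD4-positive replicate 2, and the log2 fold change was -0.31 with that CD4-negative library and -0.05 without it. Its neighbour Tyrobp, whose 3' end lies close by on the opposite strand, thus separated the groups where Hcst did not.

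The make-up of the adaptors can be compared per kilobase of exon, with a limit for Cd247. Its exon length over all annotated transcripts was 5329 bases, against 874 for Fcer1g, 722 for Hcst and 667 for Tyrobp. As for Syk, the Cd247 level per kilobase may thus be a low estimate. The place of Cd247 in the order and the shares of the 4 adaptors depend on that length. In CD4-positive libraries the order of levels was Hcst (76.4 ± 20.5 CPM per kilobase), Fcer1g (60.6 ± 5.0), Cd247 (40.5 ± 5.60) and Tyrobp (15.6 ± 3.61), where Hcst and Fcer1g do not differ beyond their spread. In CD4-negative libraries it was Fcer1g (117 ± 8.08 CPM per kilobase), Hcst (94.5 ± 26.8), Tyrobp (38.3 ± 10.1) and Cd247 (35.5 ± 6.82), where neither the first pair nor the last pair differ beyond their spread. Fcer1g made up 28.6%, 33.5% and 32.3% of the 4 adaptors in CD4-positive libraries and 40.4%, 41.2% and 41.2% in CD4-negative libraries. Cd247 made up 17.3%, 25.5% and 20.6% in CD4-positive and 14.2%, 14.5% and 9.03% in CD4-negative libraries. The ratio of Fcer1g to Cd247, the adaptors that NKp46 can use, was 24.8 ± 2.90% of CPM in CD4-positive and 56.0 ± 16.3% in CD4-negative libraries, without overlap.

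Plek (chr11:16971206-17052381, minus strand) encodes pleckstrin, a protein of platelets and leukocytes that protein kinase C phosphorylates after activation. It was at 9.46, 6.05 and 7.0 CPM in CD4-positive libraries, against 37.7, 30.5 and 36.7 CPM in CD4-negative libraries. The lowest CD4-negative library was more than 3 times as high as the highest CD4-positive library, and the log2 fold change was -2.22 (7.50 ± 1.76 against 34.9 ± 3.91 CPM), or 4.66-fold higher in CD4-negative cells.

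Across the 6 libraries log2 CPM of Syk had a Pearson r of 0.95 with Plek, 0.93 with Ncr1, 0.92 with Fcer1g, 0.90 with Tyrobp and -0.88 with Fcgr3. It was 0.30 with Hcst, -0.34 with Cd247 and -0.38 with Zap70. These values describe 6 libraries that fall into the sorted groups, so they carry no test. Outside the 9, the genes most like Syk among 9167 with a mean of at least 5 CPM were Gm10524, Atp1b1, Swap70, Slco3a1 and Emilin2, with r between 0.984 and 0.990. Emilin2, an extracellular matrix glycoprotein, had a log2 fold change of -2.66, close to that of Syk, while Swap70, an actin-binding signalling protein, was at -0.74. The genes most like Zap70 were Ube2v1, Tssc4, Laptm5, Pkm and Ltb (r of 0.993 to 0.996), and the groups of all 5 overlapped.

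The promoters of Syk and Ncr1, the bases around an annotated start, are shown because both genes were lower in every CD4-positive library. They come from RefSeq (GRCm38.p6), and capitals mark a match to the Runx motif TGTGGT on either strand. The T-box motif GGTGTGA and the Ets motif AGGAAGT were searched in the same way, without overlap between matches in these windows.
Ncr1, chr7:4337465-4337764, plus strand: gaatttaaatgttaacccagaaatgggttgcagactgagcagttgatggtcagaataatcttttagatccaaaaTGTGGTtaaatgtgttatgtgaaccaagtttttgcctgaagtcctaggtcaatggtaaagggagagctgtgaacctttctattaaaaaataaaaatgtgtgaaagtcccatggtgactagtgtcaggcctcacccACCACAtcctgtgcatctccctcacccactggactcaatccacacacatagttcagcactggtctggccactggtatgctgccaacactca
Syk, chr13:52583187-52583486, plus strand: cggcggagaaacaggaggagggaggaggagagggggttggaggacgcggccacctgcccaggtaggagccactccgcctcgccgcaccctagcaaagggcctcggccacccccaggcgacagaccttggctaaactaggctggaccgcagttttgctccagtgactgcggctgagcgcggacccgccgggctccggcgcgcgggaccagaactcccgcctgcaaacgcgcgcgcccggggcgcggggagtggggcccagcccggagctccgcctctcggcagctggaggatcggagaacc

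Ncr1 had 2 Runx matches, Fcer1g had 1, Zap70 had 1 at a single one of its annotated starts, and the promoters of Syk, Plek, Fcgr3, Hcst and Cd247 had none, where 16.8% of 32851 promoters of this length hold the motif. The T-box letters were in no promoter of the matched genes (3.98% of all promoters), and the Ets letters were in those of Hcst and Cd247 (9.35% of all promoters). Tyrobp had no entry in the promoter table. A match is a description of these letters in this window.

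The rest of the pathway was described with 5 lists of other genes, chosen like the 9 with earlier results known. Of their 91 genes 66 were tested and none passed edgeR's quasi-likelihood test at an adjusted p under 0.05 in either direction, where 0.0705% of all tested genes passed higher and 0.141% lower. At an unadjusted p under 0.05 there were 10, where 4.44% of all tested genes had one. DESeq2 called 6 (Cd79b, Clnk, Fcgr2b, Lat2, Plcg2 and Yes1), all lower in CD4-positive cells. It called 0.845% of 19410 genes, 0.51% as lower. Those are all genes with a count in any library, so this share is not on the same base as those over the 12760 filtered genes. Limma-voom called 0 of the listed genes and 0.227% of all tested genes. Groups did not overlap for 13 of the 66, 1 higher and 12 lower in CD4-positive cells, where 4.85% of all tested genes were higher and 4.58% lower without overlap.

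**Figure D3:**
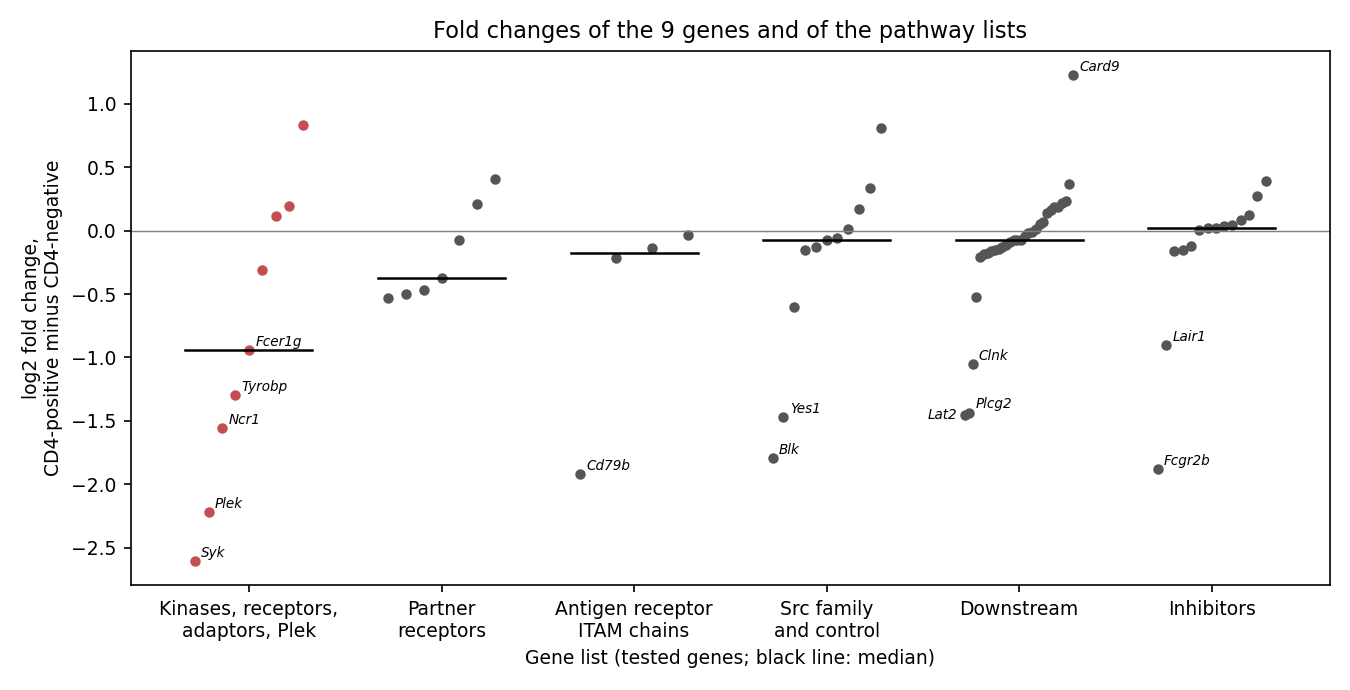
Log2 fold change, CD4-positive minus CD4-negative, of the 9 genes (red) and of the tested genes of 5 pathway lists (grey), sorted within each column, with a black line at the median. Most listed genes lie near 0, with medians between -0.37 and 0.02, and a few low-level genes such as Lat2, Plcg2 and Clnk lie near or below -1.

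Partner receptors are those that need one of these adaptors, or that carry a shortened ITAM of their own. Of 26 listed 7 were tested, none passed, and the median log2 fold change was -0.37. Klrk1, which encodes NKG2D and uses DAP10 and, in mice, DAP12, was at 311, 382 and 349 CPM in CD4-positive libraries, against 472, 486 and 390 CPM in CD4-negative libraries (log2 -0.37). Klrc2, which encodes NKG2C and uses DAP12, was at 42.4 ± 3.14 against 61.1 ± 7.53 CPM, and both had groups that did not overlap. Klrb1f was at 47.5 ± 17.6 against 35.7 ± 12 CPM. The receptors best known from myeloid cells and mast cells were at or near 0: Trem1, Trem2, Clec5a and Fcer1a had no count in any library, and Fcgr1 and Fcgr4 stayed under 0.1 CPM.

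The ITAM chains of antigen receptors did not pass either, with 4 of 5 tested and a median of -0.18. Cd3g was highest, at 1534, 965 and 1083 CPM in CD4-positive libraries, against 1040.3, 935 and 1966 CPM in CD4-negative libraries. Cd3d was at 621 ± 223 against 720 ± 421 CPM, and both had their largest value in CD4-negative replicate 3. Without that library the log2 fold change of Cd3g went from -0.14 to 0.28 and that of Cd3d from -0.21 to 0.38. Cd79b, a chain of the B cell receptor, was low and did not overlap, at 0.802, 0.328 and 0.656 CPM in CD4-positive and 2.35, 2.02 and 2.43 CPM in CD4-negative libraries (log2 -1.92, edgeR adjusted p = 0.255). Cd79a, its partner, stayed at or below 0.185 CPM in every library, and Pax5 was at 0.

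Among Src family kinases and their direct regulators, all 11 were tested with a median of -0.07. Lck (1012 ± 126 against 1066 ± 245 CPM) and the phosphatase gene Ptprc (CD45, 1543 ± 261 against 1719 ± 275 CPM) were highest and overlapped. Without CD4-negative replicate 3 the log2 fold change of Lck went from -0.07 to 0.13. The low-level kinase genes Yes1 and Src did not overlap. Yes1 was at 3.29, 4.82 and 3.12 CPM in CD4-positive libraries, against 10.3, 14.0 and 6.84 CPM in CD4-negative libraries (log2 -1.47, edgeR adjusted p = 0.234), and Src at 7.58 ± 1.55 against 11.5 ± 1.53 CPM. Blk was at 0.485 ± 0.531 against 1.69 ± 0.983 CPM, with overlap.

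Of 32 genes downstream of the kinases 30 were tested, with a median of -0.07. The smallest p-values belonged to Clnk, Lat2 and Plcg2, each of which has a T cell counterpart. Clnk, an adaptor of the SLP-76 family, was at 11, 9.70 and 9.37 CPM in CD4-positive libraries, against 20.5, 20.5 and 21.4 CPM in CD4-negative libraries (log2 -1.05, edgeR adjusted p = 0.0590). Lat2, a membrane adaptor related to LAT and known from B cells, mast cells and NK cells, was at 5.13, 5.72 and 6.25 CPM, against 15.2, 11.6 and 20.1 CPM in CD4-negative libraries (log2 -1.46, edgeR adjusted p = 0.0861). Plcg2, the phospholipase C gamma form of B cells and NK cells, was at 4.87, 6.25 and 6.67 CPM, against 12.5, 15.2 and 20.5 CPM in CD4-negative libraries (log2 -1.44, edgeR adjusted p = 0.0993). By DESeq2 these 3 had adjusted p-values of 1.23e-04, 9.03e-05 and 1.26e-04, and over all alternatives they were at most 0.389 for Clnk and 0.447 for Lat2 and Plcg2.

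The T cell counterparts overlapped between the groups. Lat was at 262 ± 38.1 against 276 ± 34.4 CPM, the SLP-76 gene Lcp2 at 368 ± 41.1 against 312 ± 50.3 CPM, and Plcg1 at 225 ± 31.6 against 215 ± 21.5 CPM. The most abundant downstream genes, Pik3cd (534 ± 76.5 against 585 ± 20.7 CPM) and Skap1 (561 ± 162 against 566 ± 188 CPM), overlapped too. Without CD4-negative replicate 3 the log2 fold change of Skap1 went from -0.01 to 0.30.

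Ratios of such pairs show the pattern within each library. The pairs were put together after their values were seen and carry no test. Lat2 was at 2.0%, 2.52% and 2.07% of Lat in CD4-positive libraries and at 5.86%, 4.62% and 6.39% in CD4-negative libraries. Clnk was at 2.76%, 2.52% and 2.92% of Lcp2 in CD4-positive and at 5.88%, 6.17% and 8.38% in CD4-negative libraries. Plcg2 was at 1.96%, 2.62% and 3.53% of Plcg1 in CD4-positive and at 5.76%, 6.43% and 10.7% in CD4-negative libraries. Yes1 to Fyn, another T cell kinase, was at 0.932 ± 0.219% in CD4-positive libraries, against 2.44 ± 0.581% in CD4-negative libraries. In these pairs, as in Syk to Zap70 and Fcer1g to Cd247, the first gene's share was lower in every CD4-positive library. The second gene stayed the larger by CPM in every library. Per kilobase of exon, however, Fcer1g was at 131% to 165% of Cd247 in CD4-positive libraries and at 284% to 457% in CD4-negative libraries. That order depends on the long exon length counted for Cd247. By CPM, the difference of Syk to Zap70 (log2 -2.76) exceeded those of the other pairs (log2 -1.48 to -1.15).

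**Figure D4:**
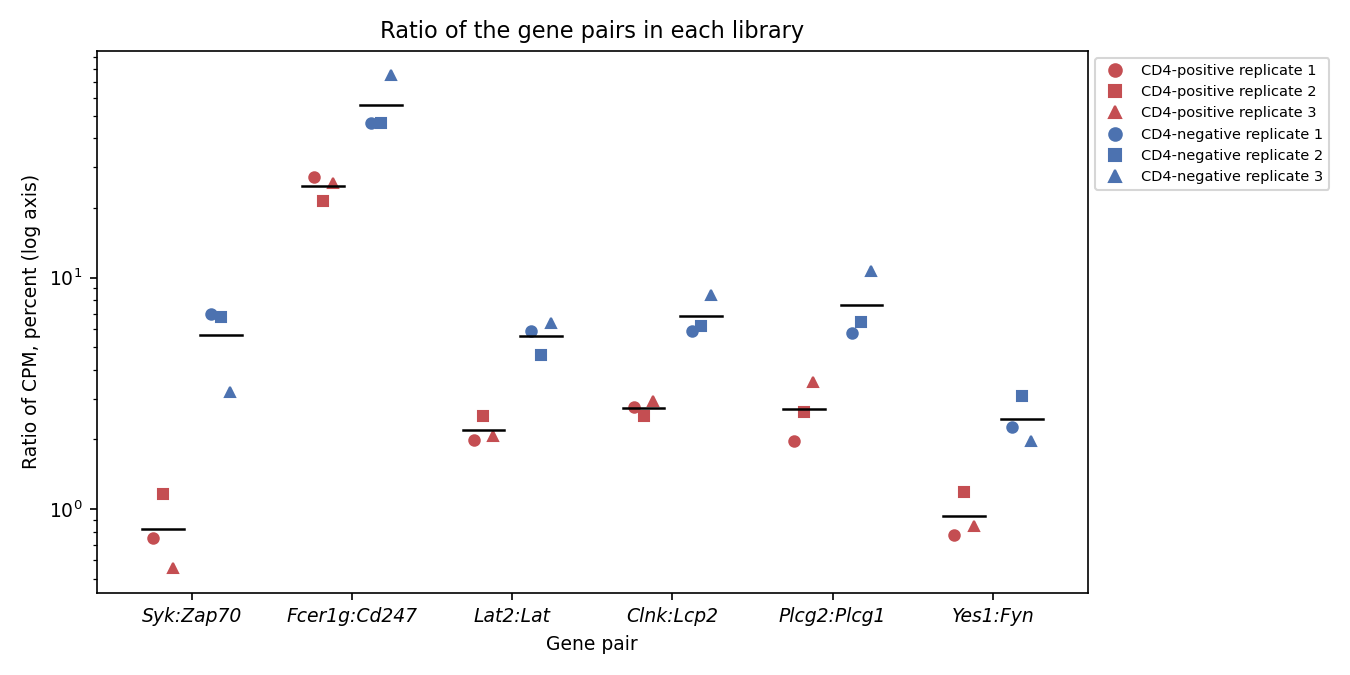
CPM of the first gene as a percentage of the second, on a log axis, for 6 gene pairs, with a point for each library (CD4-positive in red, left, and CD4-negative in blue, right) and a black line at the group mean. In each pair the 3 CD4-positive points lie below the 3 CD4-negative points, from 0.556% to 1.16% against 3.21% to 6.94% for Syk to Zap70.

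Inhibitors of ITAM signalling had a median of 0.02, with 14 of 17 tested. The phosphatase gene Ptpn6 (SHP-1, 1054 ± 215 against 1040 ± 148 CPM) and the adaptor gene Sla (365 ± 18.5 against 397 ± 36.0 CPM) were highest and overlapped. Lair1, a collagen receptor with inhibitory tyrosine motifs, was at 6.07, 9.02 and 6.36 CPM in CD4-positive libraries, against 14.5, 14.1 and 11.4 CPM in CD4-negative libraries (log2 -0.90, edgeR adjusted p = 0.366). Fcgr2b, the receptor that shares reads with Fcgr3, had a log2 fold change of -1.88 (edgeR adjusted p = 0.135). Sla2, an adaptor that dampens T cell receptor signalling, was at 114 ± 4.30 against 128 ± 5.48 CPM, without overlap (log2 -0.16).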

How the data were processed

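What the authors deposited is 1 table of unnormalised estimated counts for 6 libraries (RNeasy Plus Micro RNA, TruSeq stranded mRNA preparation, paired ends on a HiSeq4000, per the labels' protocols). Per the submitters' processing notes, STAR, Picard, RSEM and the build mm10 were used, with no version or role given. Annotation and strandedness of counting: not given in the sources used here. Columns were matched to samples by library name. Counts were rounded, and coordinates and exon lengths come from GENCODE release M21 (47224 identifiers found ignoring the version). Replicates differed far beyond sampling noise (chi-square per degree of freedom 55.6 to 400.5), so all 6 were kept.

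Group was the only term of a model in edgeR 4.0.16 (R 4.3.3), with filterByExpr, TMM, a robust 2-sided quasi-likelihood test and Benjamini-Hochberg adjustment over 12760 genes at 0.05, first tested on simulated data. Alternatives were RLE and upper-quartile scaling, no filter, a mean of at least 5 CPM, DESeq2 1.42.0, limma-voom (limma 3.58.1), the replicate number as a block, a batch term for how libraries were named (replicate 3 of both groups follows another scheme), and each library left out. The 9 genes, the lists and the rules were chosen with earlier results of these data known. Named from each list were genes past the test, the 3 with the smallest p and the 2 with the highest mean CPM. Others, such as the T cell counterparts, receptors at 0 and Cd79a, were named after their values were seen. The floor (3 counts) covers counting error only, while each SD is the spread over the 3 libraries of a group.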

Additional observations from a re-analysis of the deposited data

How the results depend on the processing

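The log2 fold changes of Syk, Plek, Ncr1, Tyrobp, Fcer1g, Hcst, Cd247 and Fcgr3 kept their sign under every alternative, and Zap70 kept its sign in all but 1 of 14 (-0.0016 without CD4-positive replicate 1). Fcgr3 had no value at a mean of at least 5 CPM, since it was filtered out. Syk ranged from -2.78 to -2.39 and Plek from -2.42 to -2.08 with a library left out, and Syk to Zap70 from -3.13 to -2.51.

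Calls depended on the setting. DESeq2 called 164 genes (65 higher, 99 lower), 5 of the 9 genes (Syk, Plek, Ncr1, Fcer1g, Tyrobp) and 6 listed genes. Without a filter edgeR called 67 (23 higher, 44 lower), 3 of the 9 (Syk, Ncr1, Plek) and 3 listed genes. Limma-voom called 29 and the same 3 of the 9. With the naming scheme as a batch term edgeR called 11 (3 higher, 8 lower), of the 9 genes only Syk, 1 gene. With the replicate number as a block it called 0 genes (0 higher, 0 lower; 531 at an unadjusted p under 0.05), 0 of the 9 and 0 listed genes. The log2 difference of Syk to Zap70, -2.76, cannot change under a block in this balanced design. The labels do not say that a number marks a shared animal, batch or day. Deviations of same-numbered libraries correlated at -0.08, 0.34 and 0.04, and not every library correlated best with its own number. However, library names match across the groups at each number, and Y-linked counts were high only in replicate 1 of both groups. Whether the numbers pair the libraries is not known. With a library left out edgeR called 0 to 44 genes (0 to 11 higher, 0 to 33 lower) and 0 to 3 of the 9: without CD4-negative replicate 3 there were 44, with Syk, Plek and Ncr1, and without any other library 0 (439 to 585 at an unadjusted p under 0.05). The cause was not tested.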
